A study of Mus musculus with 5 samples.

Results

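Helper T cells activated for 10 days were compared with naive helper T cells on 2 microarrays, the dye swap pair of this time point among the 5 arrays of the series. Each array measured 171 microRNA probes, all of which are described here, and 7 probes for transfer and small nuclear RNAs. Both groups were mouse CD4+25- T cells, conventional helper T cells that lack CD25, the interleukin-2 receptor chain carried by most regulatory T cells. One group had been activated for 10 days and the other not at all, and the latter is called naive, as in the title of the series. Total RNA of both was hybridised to each array, with the activated RNA in Cy5 on one and in Cy3 on the other. The other 3 arrays held cells activated overnight (1 array) or for 3 days (2 arrays) against the same kind of naive cells. Mouse strain, age, number of animals, stimulus and culture were not given in the sources used here. Neither was the origin of the 2 arrays' RNA extracts. The pair may therefore be 1 biological replicate, and every p-value covers no more than the variation from array to array, possibly all technical.

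The deposited value of a probe is a log ratio of the 2 channels, without signal, background or detection call, so no level is known and the labelled cell type could not be checked against its markers. The log base and the numerator are not stated. Values were read as log2 ratios, and the array with activated RNA in Cy3 was multiplied by -1, which gives activated over naive if Cy5 was the numerator. That is an assumption from the usual order of such ratios and not settled by the labels, since the array titles have one wording for both dye orientations. Every "higher" and "lower" here rests on it, and all directions would turn if Cy3 were the numerator. The medians of the 2 turned arrays were -0.51 and -0.38, below 0, and each value as deposited is therefore followed where it matters by the value after centring each array on its median, which adds 0.45 to a pair mean.

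MicroRNAs are short RNAs that guide the silencing complex to messenger RNAs, mostly through the seed, bases 2 to 8 from the 5′ end. MicroRNAs with one seed share most of their predicted targets even where they come from different genes. Activation of a T cell turns on some microRNAs, such as miR-155 from the Bic transcript, and turns off others that mark the resting state, such as miR-150. MiR-210 is known to answer to low oxygen and miR-34a to p53, a factor activated by DNA damage and other stress.

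The sequences below belong to the microRNAs at the top and bottom of the day 10 ratios and to their seed relatives, since several seed families were divided. They are mature mouse sequences from RefSeq (GRCm38.p6), written 5′ to 3′ with the seed in capitals. Probe sequences were not used here, so each was matched through the annotated gene or the microRNA number in the probe ID. An unlettered number was read as the a member and an unstarred name as the arm that usually carries it.
miR-210-3p: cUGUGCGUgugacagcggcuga
miR-34a-5p: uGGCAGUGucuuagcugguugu
miR-34b-5p: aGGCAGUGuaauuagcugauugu
miR-148a-3p: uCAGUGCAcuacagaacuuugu
miR-152-3p: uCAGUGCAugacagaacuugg
miR-222-3p: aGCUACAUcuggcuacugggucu
miR-221-3p: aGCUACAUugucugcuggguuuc
miR-21a-5p: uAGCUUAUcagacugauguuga
miR-130b-3p: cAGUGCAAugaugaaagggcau
miR-301a-3p: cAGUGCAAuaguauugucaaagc
miR-130a-3p: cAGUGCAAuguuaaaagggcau
miR-181a-5p: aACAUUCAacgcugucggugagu
miR-181b-5p: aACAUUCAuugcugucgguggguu
miR-181c-5p: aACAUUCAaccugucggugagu
let-7c-5p: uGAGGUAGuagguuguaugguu
let-7b-5p: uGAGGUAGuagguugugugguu
let-7a-5p: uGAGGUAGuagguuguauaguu
let-7g-5p: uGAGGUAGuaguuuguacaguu
let-7i-5p: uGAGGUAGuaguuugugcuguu
miR-214-3p: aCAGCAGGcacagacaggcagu

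In RefSeq's GRCm38.p6 table, miR-210-3p lies at chr7:141221407-141221428 (minus strand), miR-34a-5p at chr4:150068473-150068494 (plus strand), miR-148a-3p at chr6:51269829-51269850 (minus strand) and miR-21a-5p at chr11:86584120-86584141 (minus strand). MiR-222-3p at chrX:19146901-19146923 (minus strand) and miR-221-3p at chrX:19146307-19146329 (minus strand) are neighbours.

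In cells activated for 10 days, 17 of 171 probes were higher than in naive cells by 2-fold or more (9.94% of probes) and 29 were lower by as much (17%). The rule was a pair mean at least 1 from 0 on the log2 scale and the same sign on both arrays. All other probes met neither rule. With Cy3 as the numerator the same probes would give 29 higher and 17 lower. After centring the split was 25 higher (14.6%) and 7 lower (4.09%). As centring raises every pair mean, it can take no probe off the higher side, and 7 of the 29 lower ones were still past the threshold. Used alone, the array with activated RNA in Cy5 gave 27 higher and 52 lower, and the array with it in Cy3 gave 14 and 37, without the dye effect cancelled.

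The 2 arrays had the same sign for 131 probes, 37 above 0 and 94 below, and opposite signs for 40. Over the 171 probes their turned ratios correlated at Pearson r = 0.43 and Spearman rho = 0.29, a description across probes that share both RNAs. The arrays lay closest together for the probes that were higher: the distance of either array from the pair mean had a median of 0.0985 there, 0.174 for the lower probes and 0.196 for all. The size rule favours probes whose arrays are alike, so these medians are no separate sign of precision.

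**Figure D1:**
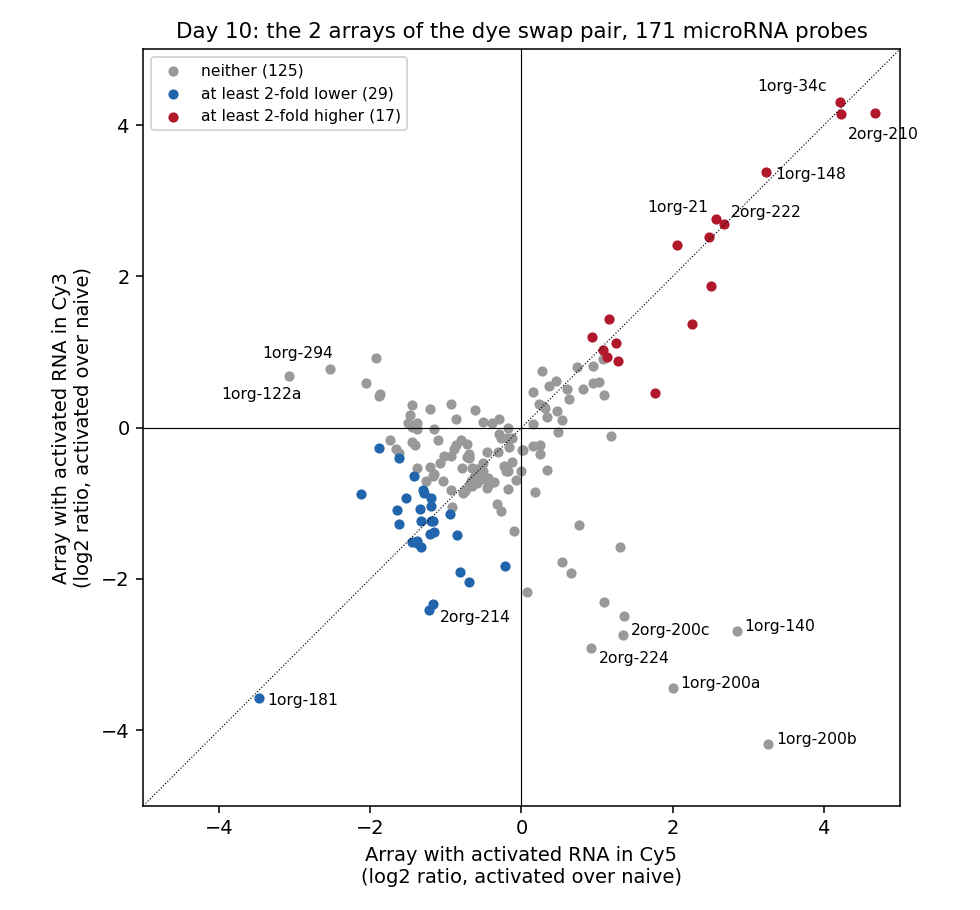
Log2 ratio of activated over naive cells at day 10 for each of the 171 microRNA probes (points) on the array with activated RNA in Cy5 (horizontal) and on the array with it in Cy3, turned (vertical), as deposited. The 17 probes at least 2-fold higher lie along the dotted line of equal values at upper right, 1org-181 lies alone at lower left, and the miR-200 probes lie far off the line at lower right.

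The highest ratio belonged to probe 2org-210, numbered as miR-210, a microRNA induced by hypoxia through the factor HIF-1. It read 4.67 and 4.16 on the arrays with activated RNA in Cy5 and in Cy3, an order of arrays kept below, for a mean of 4.41 or 21.3-fold (limma over the 5 arrays, adjusted p = 3.3e-16). It was the highest probe on the former array and below 1org-34c alone on the latter. MiR-34a, a direct target of p53, was measured by probes 1org-34c, annotated with its gene, and 2org-34. The former read 4.21 and 4.30, a mean of 4.26 or 19.1-fold (adjusted p = 1.5e-15), and the latter 4.22 and 4.15, a mean of 4.19 or 18.2-fold (adjusted p = 2.8e-15). The means of the 2 probes were 0.07 apart.

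Probe 1org-148, read as miR-148a, a microRNA known to be induced in repeatedly stimulated helper T cells, followed at 3.24 and 3.38, a mean of 3.31 or 9.91-fold (adjusted p = 2.1e-10). The neighbouring genes miR-222 and miR-221, which target the cell cycle inhibitor p27, stood close together. Probe 2org-222 read 2.67 and 2.69, a mean of 2.68 or 6.42-fold (adjusted p = 3.4e-07). Probe 2org-221 read 2.48 and 2.52, a mean of 2.50 or 5.64-fold (adjusted p = 2.0e-06). MiR-21 (1org-21), a microRNA linked to survival of activated and memory T cells, read 2.57 and 2.76, a mean of 2.66 or 6.33-fold (adjusted p = 3.7e-07). These 7 probes were the ones that were higher in limma on the day 10 pair alone (adjusted p from 0.037 to 0.043, 4.09% of probes).

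Another 10 probes were higher by the size rule. MiR-96 (1org-96), of the miR-183 cluster, read 2.06 and 2.41, and miR-23a (1org-23a) read 2.51 and 1.87, means of 2.23 and 2.19. MiR-18 (1org-18), of the miR-17 cluster, read 2.25 and 1.37, a mean of 1.81. These 3 also passed limma over the 5 arrays (adjusted p = 2.8e-05, 4.0e-05 and 0.0011), as did 1org-130b (1.16 and 1.44, adjusted p = 0.03) and miR-27a (1org-27a, 1.25 and 1.12, adjusted p = 0.047). The last 5 stood between 1.04 and 1.11 with adjusted p from 0.068 to 0.082: 2org-147 (1.76 and 0.46), 1org-27b (1.27 and 0.88), 1org-296 (0.93 and 1.20), miR-19a (2org-19a, 1.07 and 1.03) and miR-301 (1org-301, 1.13 and 0.94). After centring all 5 passed that fit, with means from 1.48 to 1.56. Just short of the threshold were 1org-24 at 0.99 and 1org-29c at 0.89. The fit called 12 probes higher (7.02%) and 20 lower (11.7%) as deposited, with an SE of 0.45 for every probe. It had 1 residual degree of freedom, and limma estimated infinite prior degrees of freedom, so all probes were given one pooled spread. The distance of either array from the pair mean was 0.003 for 2org-107 and 3.72 for 1org-200b. That distance includes the dye effect, for which this fit has a term, so it does not show how unequal the spread was. Every adjusted p of this fit, however small, rests on that pooled spread.

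**Figure D2:**
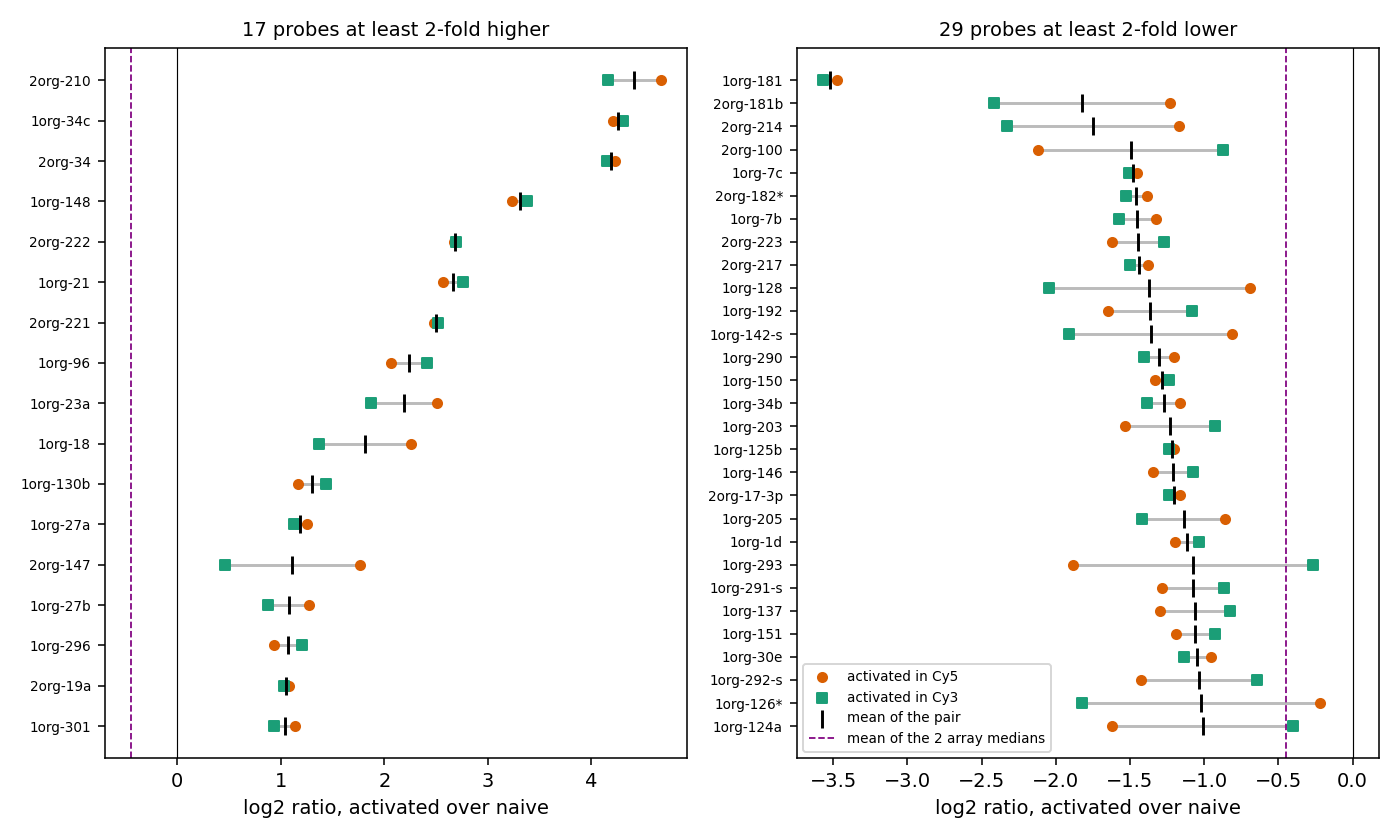
Log2 ratio of activated over naive cells (horizontal) for the 17 probes at least 2-fold higher (left) and the 29 at least 2-fold lower (right) at day 10, with a circle for the array with activated RNA in Cy5, a square for that in Cy3 and a bar for their mean. The dashed line is the mean of the 2 array medians, -0.45; 8 higher probes have both arrays above 2, whereas among the lower probes only 1org-181 has both below -2.

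The lowest ratio belonged to probe 1org-181, read as miR-181a, which is abundant in developing thymocytes and raises the sensitivity of the T cell receptor. It read -3.48 and -3.57, a mean of -3.52 or 11.5-fold lower (limma over the 5 arrays, adjusted p = 1.7e-11), and it was the 1 probe that was lower in limma on the pair alone (adjusted p = 0.037, 0.585% of probes). The next, 2org-181b, read -1.23 and -2.42, a mean of -1.82 (adjusted p = 0.0011), and the arrays differed by more than 1 there. MiR-181c (2org-181c), with the same seed as both, read -0.69 and -0.35, a mean of -0.52, or -0.07 after centring.

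Probe 2org-214, numbered as miR-214, a microRNA known to rise after T cell stimulation, was lower at day 10, at -1.17 and -2.33, a mean of -1.75 (adjusted p = 0.0018). Probe 2org-100, of the miR-99/100 family, read -2.12 and -0.87. Let-7c (1org-7c) and let-7b (1org-7b), of a family known for restraining growth, read -1.45 and -1.51 and -1.32 and -1.58, and 2org-182*, the opposite arm of miR-182, read -1.39 and -1.53. These 5 with the miR-181a and miR-181b probes were the 7 that stayed at least 2-fold lower after centring, the last of them let-7b at -1.0025. In limma after centring, 5 probes were lower, and let-7b and 2org-182* were not among them.

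The other 22 lower probes stood between -1.44 and -1.01 and were under 2-fold after centring, from -0.9965 to -0.56. Among them, 2org-223, numbered as the myeloid miR-223, read -1.62 and -1.27, and 2org-217 read -1.38 and -1.50. MiR-150 (1org-150), which marks mature resting lymphocytes and targets Myb, read -1.33 and -1.24, a mean of -1.28 (adjusted p = 0.032) and -0.84 after centring. Probe 1org-142-s, for an arm of the blood cell microRNA miR-142, read -0.81 and -1.91. Probe 1org-146, of miR-146, a brake on NF-kappa-B signalling, read -1.34 and -1.07. The lower side had no clear edge: 8 of the 29 lower probes lay within 0.1 of the threshold and 8 more lay within 0.1 short of it, against 4 and 1 on the higher side.

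Members of one seed family stood far apart at day 10 in several cases. The 3 matched miR-34 probes share the seed GGCAGUG, and while both miR-34a probes were above 4, miR-34b (1org-34b) read -1.16 and -1.38, a mean of -1.27. Probe 1org-34a, annotated with the miR-34c gene, whose gene lies beside that of miR-34b, read -0.79 and -0.53. MiR-148a and miR-152 share CAGUGCA, and 1org-152 read -0.65 and -0.53, a mean of -0.59, where 1org-148 was above 3 on both arrays. In the AGUGCAA family 1org-130b and miR-301 were higher, at 1.30 and 1.04, and 1org-130a read -0.67 and -0.71, a mean of -0.69, although miR-130a-3p and miR-130b-3p differ at 2 bases. Differences between probes were not tested, and values of near-identical microRNAs are uncertain, since the specificity of the probes is unknown.

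The let-7 family showed a graded picture. Its 9 probes, miR-98 included, share GAGGUAG and ranged from -1.48 to 0.81. Let-7c and let-7b, which differ at 1 base, had means of -1.48 and -1.45, whereas let-7a (1org-7a), which also differs from let-7c at 1 base, read -0.23 and -0.51. Let-7g (1org-7g) read 0.37 and 0.55 and let-7i (1org-7i) 1.03 and 0.60, both above 0 on both arrays, and let-7i was at 1.26 after centring, past 2-fold. Of the 19 seeds held by 2 or more matched probes, the highest and lowest means lay under 1 apart in 10 and 1 or more apart in 9. Among the former, miR-221 and miR-222 (GCUACAU) were 0.19 apart, miR-132 and miR-212 (AACAGUC) 0.16, miR-27a and miR-27b (UCACAGU) 0.11 and miR-26a and miR-26b (UCAAGUA), at -0.71 and -0.79, 0.08. The closest means, 0.06 apart, were those of miR-200a and miR-141 (AACACUG), and the 2 arrays of the miR-200a probe had opposite signs.

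On the list of activation microRNAs, 5 of 15 probes met the rule for higher and 3 that for lower, around a median of 0.51 (0.96 after centring, with 6 higher and 2 lower). Over all probes the median was -0.56 (-0.12 after centring), with 9.94% higher and 17% lower (14.6% and 4.09% after centring). This list, like those below, was chosen with earlier results of these data known, so the comparison is a description and no test. The higher members were miR-210, miR-222, miR-21, miR-221 and miR-96, and the lower ones miR-214, the starred miR-182 arm and miR-146. MiR-155 (1org-155), the microRNA of the Bic transcript, read 0.47 and 0.22, a mean of 0.35 (adjusted p = 0.54). MiR-31 (1org-31) read 0.46 and 0.61, 1org-22 read 0.74 and 0.80 and 1org-183 read 0.27 and 0.75. The neighbouring miR-132 and miR-212 (1org-132 and 2org-212), induced by the factor CREB, read -0.72 and -0.40 and -0.46 and -0.33.

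The list named resting lymphocyte holds the miR-150, miR-181, miR-26 and miR-142 probes. Its name is a label, as miR-142 is a microRNA of blood cells and not of lymphocytes alone. All 9 of its probes were below 0 on both arrays, as were 94 of all 171. Of the 9 listed, 4 were at least 2-fold lower and none higher (17% and 9.94% of all probes), around a median of -0.88. After centring 2 were lower (4.09% of all probes), around -0.43. The lower ones as deposited were 1org-181, 2org-181b, 1org-142-s and 1org-150. The miR-26 probes stood at -0.71 and -0.79, and the other miR-142 probes, 1org-142-as and 2org-142*, at -0.88 and -0.82. In the let-7 family 2 of 9 were lower and none higher as deposited, a share of lower probes near the 17% of the whole set (median -0.20). After centring 2 were lower and 1 was higher (4.09% and 14.6% of all probes), around 0.25. In the miR-30 family, 1 of 5 was lower, likewise near 17%, 1org-30e at -1.04 (median -0.80, or -0.35 centred). None of the 4 miR-15/16 and 3 miR-29 probes reached 2-fold as deposited (medians -0.34 and 0.24).

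In clusters linked to proliferation the probes were unevenly placed. Of the 5 miR-23/24/27 probes 3 were higher (9.94% of all probes), around a median of 1.07, and 1org-23b read 0.48 and -0.06 where its relative miR-23a averaged 2.19. Of the 11 probes of the miR-17, miR-106a and miR-106b clusters, which promote cell division, 2 were higher and 1 lower as deposited (median 0.55; 9.94% and 17% of all probes), and 6 higher and none lower after centring (median 1.00; 14.6% and 4.09% of all probes). MiR-18 and miR-19a were the higher ones, while 2org-17-5p and miR-20a (1org-20) read 0.81 and 0.51 and 1.09 and 0.43, and 1org-92 read -0.13 and -0.45. The opposite arm of miR-17 (2org-17-3p) read -1.17 and -1.24. In the miR-183 cluster, whose 3 genes lie together, miR-96 was higher, 1org-183 averaged 0.51 and miR-182 (1org-182) read -0.10 and -1.37.

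**Figure D3:**
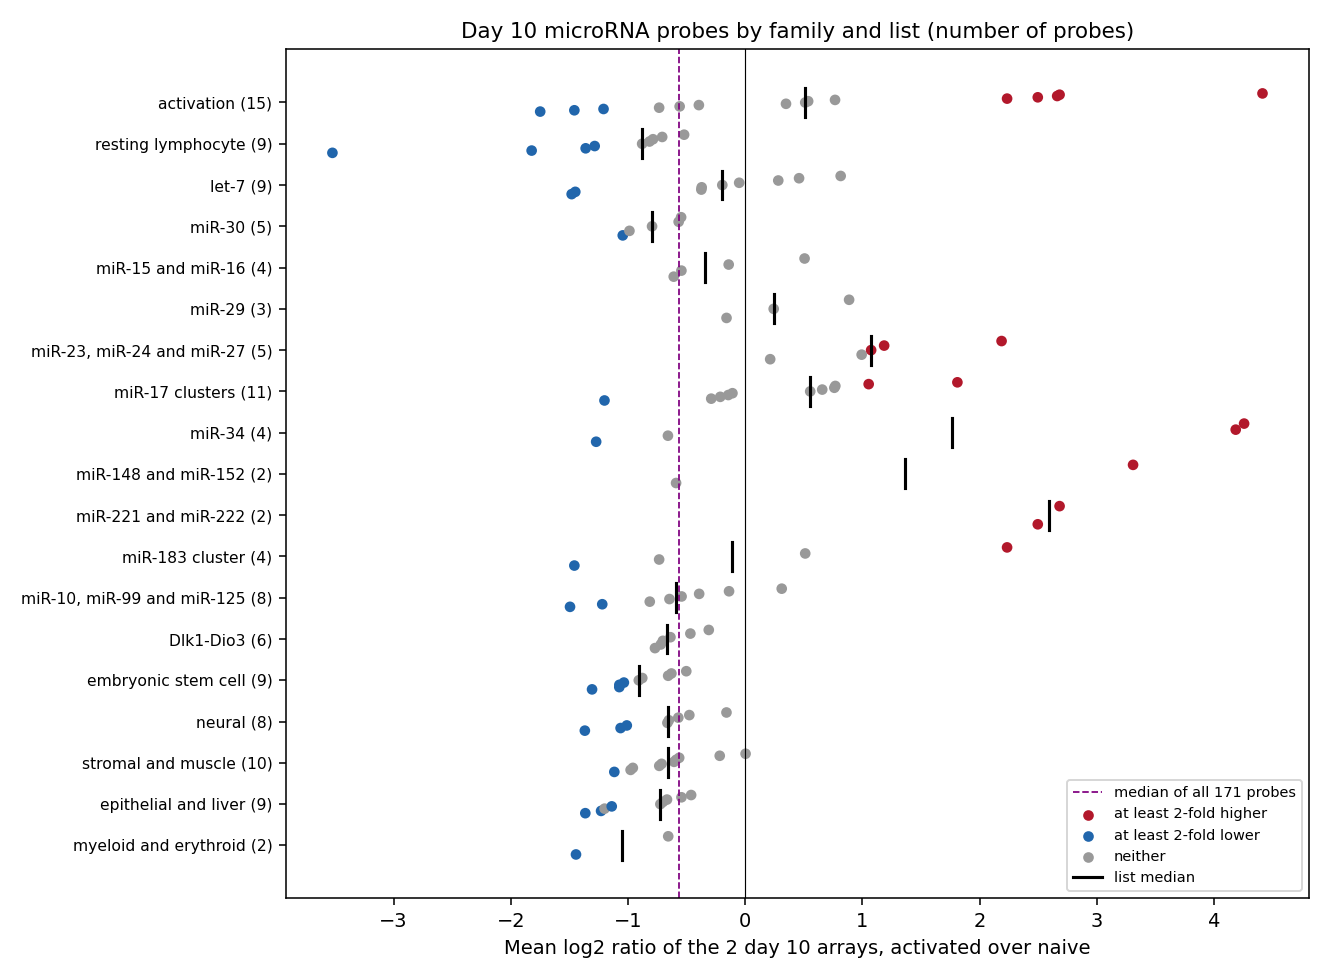
Mean log2 ratio of the 2 day 10 arrays (horizontal) for each probe (point) of the lists and families named on the left with their number of probes, red for at least 2-fold higher, blue for at least 2-fold lower and grey for neither, with a black bar at the list median. The miR-221 and miR-222 probes both lie above 2, the miR-34, miR-148 and miR-183 lists are divided, and the lists of other tissues lie near the dashed median of all probes, -0.56.

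Markers of other cell types were on the lower side or under 2-fold. On 5 lists of microRNAs known from embryonic stem cells, neural tissue, stroma and muscle, epithelium and liver, and myeloid and erythroid cells, none of 38 probes was at least 2-fold higher and 12 were lower, against 9.94% and 17% of all probes, around a median of -0.72, against -0.56. After centring none was past 2-fold in either direction (14.6% and 4.09% of all probes), around -0.27. These 12 were among the 29 lower probes of the whole set, led by 2org-223, 1org-128 (-0.69 and -2.04), 1org-192 (-1.65 and -1.08) and miR-290 (1org-290, -1.21 and -1.41). Of the same 38 probes, 17 had opposite signs on the 2 arrays, against 40 of all 171. Whether any of them was above background is unknown. On the 8 probes of the miR-10, miR-99/100 and miR-125 families the median was -0.59, with 2 lower (17% of all probes), 2org-100 and 1org-125b (-1.20 and -1.24), and miR-125a (1org-125a), of the same seed as miR-125b, read 0.16 and 0.47. The 6 probes of the imprinted Dlk1-Dio3 cluster, between -0.77 and -0.31, met neither rule. The 7 probes for transfer and small nuclear RNAs had pair means from -1.22, for the histidine transfer RNA, to -0.03.

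In 18 probes either array lay more than 1 from the pair mean, and all of these had opposite signs on the 2 arrays. With 1 array per dye orientation, a dye effect cannot be told apart from other differences between the arrays. The largest distances were in 1org-200b (3.26 and -4.19), 1org-140 (2.85 and -2.68), 1org-200a (2.00 and -3.44) and 2org-200c (1.34 and -2.75), which read above 0 with activated RNA in Cy5 and below 0 in Cy3. Their means of -0.46, 0.08, -0.72 and -0.70 are the differences of large opposed values. At day 3 the same 4 probes lay 2.99, 0.61, 2.87 and 2.69 from their means. There the miR-200 probes named again had opposite signs, whereas 1org-140 was above 0 on both arrays (1.87 and 0.66). Means past the threshold with opposed arrays occurred in 1org-122a (-3.08 and 0.68) and 1org-202 (0.07 and -2.18), which the size rule does not count as lower. Limma over the 5 arrays, which has no rule on signs, did count 1org-122a among its 20 lower probes (adjusted p = 0.045).

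Against day 3 of activation, whose arrays also carried naive RNA, limma over the 5 arrays found 15 probes higher (8.77%) and 75 lower (43.9%) at day 10. Centring subtracts -1.26 from each difference and so raises it, because the day 3 medians lay above 0 and the day 10 medians below it. After centring 37 were higher (21.6%) and 13 lower (7.6%). In both settings 15 were higher and 13 lower. Of the 17 probes at least 2-fold above naive cells at day 10, 1org-148 was also above its day 3 value, 1 (miR-301) was below it, and 15 passed in neither direction. After centring 6 were above day 3, none below, and 11 passed in neither direction.

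Probe 1org-148 read 0.29 and 1.15 at day 3 against 3.24 and 3.38 at day 10, a difference of 2.59 (adjusted p = 6.7e-04; 3.85 after centring, adjusted p = 1.3e-09), with no overlap between the pairs. For miR-34a, 1org-34c read 3.00 and 3.14 at day 3, so that all day 10 values lay above all day 3 values, with a difference of 1.18 (adjusted p = 0.097; 2.44 after centring, adjusted p = 8.0e-05). Probe 2org-210 read 4.94 and 5.12 at day 3 and 2org-222 read 2.48 and 2.80, differences of -0.62 and 0.05 (adjusted p = 0.4 and 0.95; 0.64 and 1.30 after centring, adjusted p = 0.39 and 0.057).

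Several activation microRNAs near 0 at day 10 were high on both day 3 arrays. MiR-155 read 4.89 and 4.87 then, 1org-31 read 4.29 and 5.67 and 2org-212 read 3.58 and 4.32, and the difference passed in both settings for each (adjusted p = 1.6e-07, 3.0e-07 and 6.8e-07 after centring). Probe 2org-214 went from 4.53 and 5.40 at day 3 to below 0 on both day 10 arrays (adjusted p = 2.8e-18). In the opposite direction, 1org-150 read -5.86 and -4.63 at day 3, 1org-26a -4.44 and -3.94, let-7g -3.90 and -2.79 and let-7c -4.33 and -2.99, all below both of their day 10 values (adjusted p = 8.1e-08, 1.9e-06, 2.1e-07 and 0.003). Probe 1org-181 read -5.37 and -3.69 at day 3 and remained low, with a difference of 1.01 (adjusted p = 0.16; 2.26 after centring, adjusted p = 2.7e-04).

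**Figure D4:**
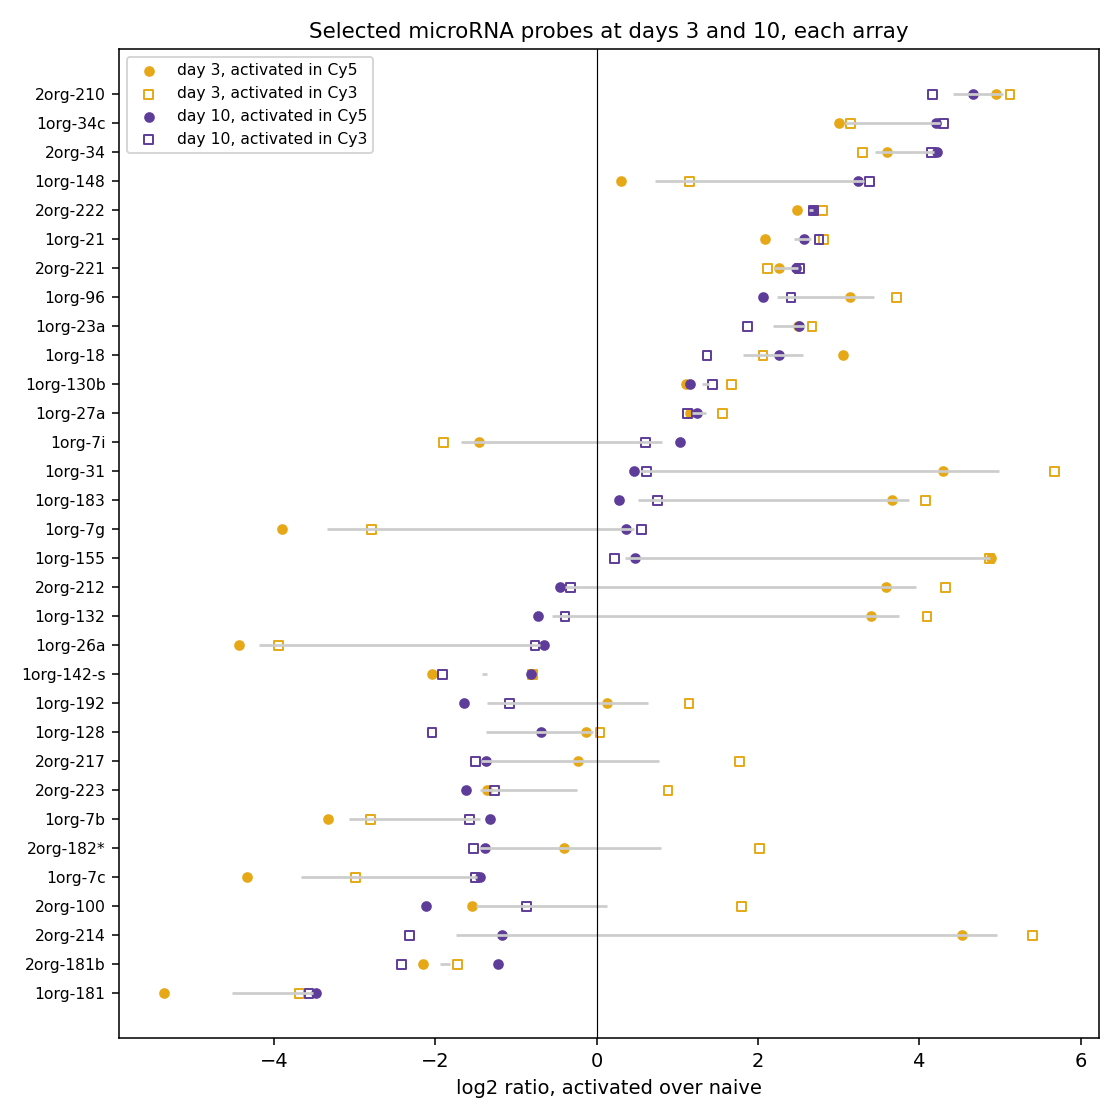
Log2 ratio of activated over naive cells (horizontal), as deposited, on each array of day 3 (orange) and day 10 (purple) for the 12 highest and 12 lowest called probes of day 10 and 8 other probes named in the text, with filled circles for activated RNA in Cy5, open squares for Cy3 and a grey line between the pair means. MiR-155 (1org-155), 1org-31, 1org-183, 2org-212, 1org-132 and 2org-214 lie far to the right at day 3 only, whereas 2org-210, 2org-222, 2org-221 and 1org-21 lie to the right at both times.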

How the data were processed

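Per the labels, 2 RNAs per array were labelled with Cy3 and Cy5. The deposited table gives 1 value per probe and array, and how the authors scanned and normalized the arrays, the log base and the numerator were not given in the sources used here. Reading the authors' deposited values as log2 ratios of Cy5 over Cy3 is an assumption, and they were turned to activated over naive. The 7 other small RNA probes were left out of counts and fits. The main description of day 10 is the mean of the 2 arrays, in which a dye effect cancels, with a 2-fold size rule and no test. Limma 3.58.1 in R 4.3.3 (lmFit, eBayes, 2-sided, Benjamini-Hochberg over 171 probes, threshold 0.05) was fitted to the 5 arrays with 1 coefficient for each time and 1 for dye, and to the day 10 pair alone. The fit to 5 arrays was also run on simulated data with equal noise in every probe and a dye offset constant across arrays. That run does not show how the fit performs on the real arrays. As naive RNA was on every array, no test covers the spread of the control.

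Alternatives were centring, equal array scale, natural logs, 3-fold, no rule on signs and leaving out an array. Of the 171 probes, 61 had 1 annotated gene, 1 had several and 109 none, so others are named by ID and number. Of 88 probes given a mature name, 82 matched a RefSeq sequence. The probes named are the 12 largest means past the size rule in each direction, list members, other probes past the rule and the 4 with the arrays farthest apart. The members, lists and tests were chosen with earlier results of these data known. The number of arrays limits the precision.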

Additional observations from a re-analysis of the deposited data

Results flagged for a closer look

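Among the 12 highest and 12 lowest called probes of day 10, the ratio to naive cells differed between days 10 and 3 in 8 by limma over the 5 arrays (Benjamini-Hochberg threshold 0.05). Over all 171 probes the same fit found 15 higher (8.77%) and 75 lower (43.9%) at day 10. Of these, 15 higher and 13 lower passed both as deposited and after centring. The listed probes were picked on the day 10 values that enter this difference, so the 8 are a description only. Day 10 minus day 3 was 2.59 on the log2 scale for 1org-148 (3.85 after centring) and -6.71 for 2org-214 (-5.46 after centring). Let-7c (1org-7c) and let-7b (1org-7b) were less far below naive cells at day 10 than at day 3, by 2.18 and 1.62 (3.44 and 2.88 after centring). These 4 passed in both settings. The other 4 passed as deposited and not after centring: 2org-100 was at -1.62, 2org-182* at -2.26, 2org-217 at -2.21 and 1org-192 at -2.0, or -0.36, -1.0015, -0.95 and -0.74 after centring.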

How the results depend on the processing

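The 17 probes higher at day 10 became 25 after centring, 23 when values were read as natural logs, 29 with arrays centred and brought to the same scale, 10 at 3-fold, 17 without the rule on signs, and 12, 24 and 7 in limma over the 5 arrays, the same after centring and over the day 10 pair alone. The 29 lower became 7, 51, 14, 3, 31, 20, 5 and 1 in the same order. Without either day 10 array the counts ran from 14 to 27 higher and from 37 to 52 lower. The natural log reading, the stricter fold and the loss of an array change the counts by their construction. For centring the construction is the removal of negative medians, and for the other settings the cause was not tested. Against day 3, the 15 higher and 75 lower became 37 and 13 after centring and 22 and 71 by a 2-fold rule without overlap. Refits without 1 array of days 3 or 10 left no residual degree of freedom and were not run as tests. Each ratio already pairs activated with naive RNA on the same array. Arrays of different times could not be paired, because the labels give them no replicate numbers shared between groups. Depth cannot be judged, as the file holds no signal or background.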
